A study of Homo sapiens with 28 samples.

Results

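Epithelial-mesenchymal transition (EMT) is read here from 10 genes, taken by symbol from the 19662 symbols of the PC3 and LNCaP RNA-Seq tables. They are the transcription factors ZEB1, ZEB2, SNAI1, SNAI2 and TWIST1, the mesenchymal genes VIM, CDH2 and FN1, and the epithelial genes CDH1 and EPCAM. The 16 RNA-Seq libraries came from 2 established human prostate cancer cell lines with 8 libraries each. PC3 is an androgen receptor-negative line with neuroendocrine features, and its libraries carried a control siRNA (siCtrl) or an siRNA against ONECUT2 (siOC2). LNCaP is an androgen-sensitive adenocarcinoma line, and its libraries carried an empty vector (EV) or a vector for Flag-tagged ONECUT2 (OC2). Each of these states was sampled in normoxia and in hypoxia at 0.2% oxygen, with 2 libraries per group. The 2 siOC2 libraries of a group carried different siRNAs, siRNA1 and siRNA2, so their spread held the difference between siRNAs. The study asked how ONECUT2, a homeodomain factor, and low oxygen act on prostate cancer cells, and for these genes the comparisons ask whether either was accompanied by changes in EMT genes.

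In EMT, epithelial cells lose the junctions that hold them together and take on the cytoskeleton and matrix of mesenchymal cells. The ZEB, SNAI and TWIST factors bind E-box sequences and repress CDH1, which encodes E-cadherin, the adhesion molecule of epithelial junctions. EPCAM encodes another epithelial surface adhesion molecule, CDH2 encodes N-cadherin, VIM the intermediate filament protein vimentin, and FN1 the matrix protein fibronectin. In prostate cancer, low oxygen and loss of androgen receptor signaling are both known as settings in which EMT genes can change.

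All values are RPKM, reads scaled to transcript length and to the number of mapped reads, which allow levels of genes to be compared per length. A gene was called when its fold change exceeded 2 at an unadjusted limma P under 0.05, the limits of the study, and the Benjamini-Hochberg adjusted p over all genes tested is given beside it. Rose or fell is written only of called changes or of those with an adjusted p under 0.05. All 10 genes passed the limit on low values in PC3 and 7 of 10 in LNCaP, where ZEB1, ZEB2 and CDH2 were too low to test. ZEB2 in PC3 passed only through its siRNA1 libraries, the only ones above 1 RPKM. A rank test of 2 against 2 libraries cannot go below an exact 2-sided P of 0.333. The labels do not say that the libraries of a group were separate cultures, so every P measures only the spread between these libraries.

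ONECUT2 itself was 1.77 and 1.16 RPKM in the siCtrl libraries in normoxia and 0.276 and 0.204 with siRNA1 and siRNA2. In hypoxia it was 0.648 and 0.550 in siCtrl, 0.125 with siRNA1 and 0.214 with siRNA2, so the groups did not overlap at either oxygen level, although all hypoxic values were low. ONECUT2 carries no value in the 4 OC2 libraries of LNCaP, so the overexpression was not checked here, and the EV libraries held 2.89 to 11.5 RPKM. The lines matched their names: KLK3, the prostate-specific antigen gene, was listed at 0 in all 8 PC3 libraries and was 1842 to 3997 RPKM in LNCaP. CA9, a target of hypoxia-inducible factor, was 50.01 and 45.07 RPKM in hypoxic against 0.938 and 0.386 in normoxic siCtrl libraries. Relative depth, estimated from the steps between low RPKM, ranged from 0.348 to 1.15 in PC3 and from 0.548 to 1.00 in LNCaP, each relative to 1 normoxic control library, and the PC3 siRNA1 library in hypoxia was the shallowest. Of the leukocyte markers, 4 of 5 were under 1 RPKM in every library of each line, CD68 being the exception, and of 7 fibroblast markers 3 in PC3 and 6 in LNCaP were, as were 2 of the 3 endothelial markers found in each table.

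The lines differed most in the cadherins, EPCAM and the ZEB factors. CDH1 was 0.741 to 6.87 RPKM in the 8 PC3 libraries and 284 to 397 RPKM in 7 LNCaP libraries. The LNCaP OC2 library 2 in hypoxia listed CDH1 at exactly 0 while its group partner held 284 RPKM, and that value was taken as missing. EPCAM was 3.70 to 19.1 RPKM in PC3 and 110 to 149 RPKM in LNCaP. CDH2 went the other way, with 15.8 to 42.6 RPKM in PC3, while it was listed at 0 in 7 LNCaP libraries and at 0.0503 RPKM in the remaining one. ZEB1 was 9.95 to 21.1 RPKM in PC3 and 0.0285 to 0.547 RPKM in LNCaP, and ZEB2 0.365 to 1.58 RPKM against at most 0.0397 RPKM. None of these ranges overlapped between the lines. The tables of the lines were normalised separately, with summed RPKM of 401332 to 513810 in PC3 and 813232 to 961906 in LNCaP, so levels are set side by side without a test.

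In RPKM not every gene followed that split. VIM was 30.2 to 353 RPKM in PC3 and 23.6 to 58.2 RPKM in LNCaP, so the RPKM ranges overlapped, through the PC3 siOC2 libraries with siRNA1. As rank within each library VIM did not overlap, standing above 89.8% to 99.2% of all symbols in PC3 and above 78.0% to 88.7% in LNCaP. FN1, the mesenchymal matrix gene, was 59.7 to 513 RPKM in LNCaP and 28.2 to 109 RPKM in PC3, so the epithelial line held the highest values. SNAI1 was 1.29 to 4.72 RPKM in LNCaP and 1.00 to 2.99 RPKM in PC3, and SNAI2 4.23 to 16.6 against 4.68 to 9.57 RPKM. TWIST1 was 7.49 to 15.4 RPKM in LNCaP and 1.67 to 4.74 RPKM in PC3, without overlap in RPKM and higher in the line with high CDH1. As rank within each library it did overlap, standing above 58.7% to 69.1% of all symbols in LNCaP and above 48.1% to 60.7% in PC3. Within each library, VIM was 11.9 to 72.5 times CDH1 in all 8 PC3 libraries, and CDH1 was 4.89 to 16.8 times VIM in the 7 LNCaP libraries with a value. As rank, CDH1 stood above 42.3% to 64.5% of all symbols in PC3 and above 98.0% to 98.6% in LNCaP.

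**Figure D1:**
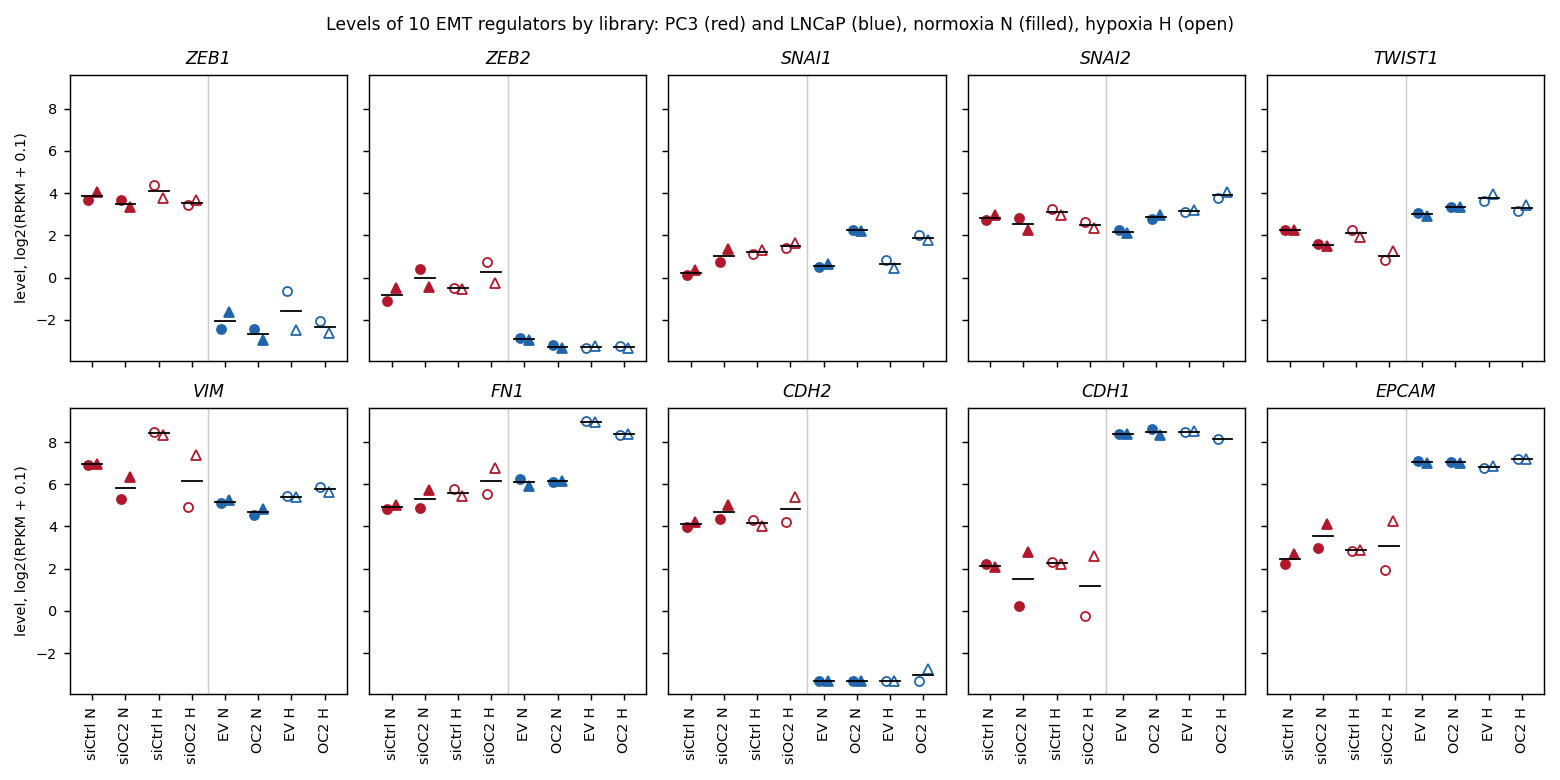
Level of each EMT regulator as log2(RPKM + 0.1) on the vertical axis, in the 4 PC3 groups (red) and the 4 LNCaP groups (blue), with circles for library or siRNA 1, triangles for library or siRNA 2 and bars for the mean of the log values. ZEB1, ZEB2 and CDH2 sit near the bottom in all LNCaP groups, CDH1 and EPCAM near the top, and CDH1 has a single LNCaP OC2 point in hypoxia because the other library was taken as missing.

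Catenins and other epithelial genes were mostly, but not always, higher in LNCaP. CTNNA1, alpha-catenin, which ties cadherins to actin, was 0 to 1.36 RPKM in PC3 and 536 to 892 RPKM in LNCaP. CTNNB1, beta-catenin, was 47.1 to 60.6 RPKM in PC3 and 36.8 to 49.2 RPKM in LNCaP, so its ranges overlapped. CTNND1, p120-catenin, was 10.6 to 35.8 against 57.6 to 91.7 RPKM, and JUP, plakoglobin, 3.07 to 11.6 against 66.7 to 111 RPKM. GRHL2, a factor that maintains the epithelial state, was at most 0.700 RPKM in PC3 and 23.9 to 35.2 RPKM in LNCaP. Of 27 junction and keratin genes 22 were higher in every LNCaP than in every PC3 library, 2 overlapped and 3 were lower in every LNCaP library. Among the lower ones were the keratins KRT7, at 107 to 302 RPKM in PC3 against 0.208 to 2.77 RPKM, and KRT19, at 48.3 to 187 against 4.93 to 20.9 RPKM. The same share over all genes was not computed, and summed RPKM were higher in LNCaP. The count is therefore not read as a trait of this list.

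Promoter sequences were found in RefSeq (GRCh38.p14) for 5 of the 10 genes, CDH2, FN1, VIM, ZEB1 and ZEB2. The windows of FN1 and VIM are shown because these genes moved most with oxygen or ONECUT2, and one of ZEB1, out of 7, because it holds the E-box letters of its own family. Each is the 250 bases before the start on the gene's strand, 5′ to 3′, with capitals for matches to 6 motifs searched on both strands: ACGTG and GCGTG (hypoxia response cores, which share 4 letters), CACCTG (the ZEB and SNAI E-box), ATCGAT and ATTGAT (ONECUT type) and TGACGTCA (the cyclic AMP response element). The windows are chr2:215436069-215436318, minus strand, for FN1, chr10:17227991-17228240, plus strand, for VIM, and chr10:31318966-31319215, plus strand, for ZEB1.
FN1: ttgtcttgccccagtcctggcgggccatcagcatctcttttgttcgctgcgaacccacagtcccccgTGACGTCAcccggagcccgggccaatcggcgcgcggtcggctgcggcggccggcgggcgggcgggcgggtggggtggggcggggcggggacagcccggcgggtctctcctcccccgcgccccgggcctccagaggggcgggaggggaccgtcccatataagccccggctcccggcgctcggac
VIM: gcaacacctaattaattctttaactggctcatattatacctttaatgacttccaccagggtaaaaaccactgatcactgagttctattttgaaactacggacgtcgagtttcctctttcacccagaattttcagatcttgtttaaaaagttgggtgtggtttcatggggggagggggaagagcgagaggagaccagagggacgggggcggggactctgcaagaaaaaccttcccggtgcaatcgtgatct
ZEB1: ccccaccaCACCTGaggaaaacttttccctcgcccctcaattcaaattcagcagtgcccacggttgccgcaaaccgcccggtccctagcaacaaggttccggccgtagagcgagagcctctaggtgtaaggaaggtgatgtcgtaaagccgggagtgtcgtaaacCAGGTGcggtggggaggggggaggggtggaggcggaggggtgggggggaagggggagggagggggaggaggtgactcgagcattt
The FN1 window holds TGACGTCA starting 183 bases before the start, letters found in 1.65% of 35116 promoter windows of this length. The ZEB1 window holds CACCTG starting 242 bases before the start and its reverse complement at 85 bases, and 17.5% of all windows hold that motif. The VIM window holds none of the 6 motifs, and neither FN1 nor VIM shows a hypoxia response core or an ONECUT type site in these 250 bases. Among the windows not shown, hypoxia response cores occur for ZEB1, ZEB2 and CDH2, and another ZEB1 window also holds the E-box letters. In all windows, ACGTG occurred in 18.5%, GCGTG in 32.2%, ATTGAT in 5.58% and ATCGAT in 0.655%. A match of letters is a description and says nothing about binding.

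In PC3 cells with control siRNA, hypoxia was accompanied by higher levels of VIM and SNAI1, but no member was called. Over all genes 3.91% of 12214 were called and 0.295% had an adjusted p under 0.05, so a count of 0 of 10 is close to the background. VIM (GRCh37, chromosome 10, 17270240 to 17279592, plus strand) was 120 and 126 RPKM in normoxia and 353 and 328 RPKM in hypoxia. The groups did not overlap, and the log2 fold change was 1.47 ± 0.69 (SE, adjusted p = 0.708). The SE is pooled over the 4 groups, including the siOC2 groups with their spread between siRNAs. In the fit with a term for the siRNA, chosen after the data were seen, VIM was called with an adjusted p of 0.00570. With the replicate number as a block it was also called, at an adjusted p of 0.428, and it was called without either siOC2 library in hypoxia, at adjusted p of 0.114 and 0.115. SNAI1 (chromosome 20, 48599517 to 48605423, plus strand), which encodes the repressor Snail, was 1.00 and 1.17 RPKM in normoxia and 2.05 and 2.36 RPKM in hypoxia, a log2 fold change of 0.96 ± 0.39 that stayed just under 2-fold (adjusted p = 0.607). FN1 was 28.2 and 32.0 RPKM in normoxia and 54.2 and 43.3 RPKM in hypoxia, without overlap (0.69 ± 0.44, adjusted p = 0.810). The other 7 genes had log2 fold changes from -0.18 to 0.41. CDH1, at 4.51 and 4.06 RPKM in normoxia and 4.87 and 4.61 RPKM in hypoxia, moved by only 0.14 ± 0.99. In these bulk libraries fewer cells with a transcript and less of it per cell cannot be told apart.

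In the siOC2 libraries 0 of 10 members were called between hypoxia and normoxia, with 3.48% of all genes called and 0.0655% at an adjusted p under 0.05. VIM was 39.5 and 81.9 RPKM with siRNA1 and siRNA2 in normoxia and 30.2 and 165 RPKM in hypoxia, so it was lower in hypoxia with siRNA1 and higher with siRNA2. FN1 was higher in hypoxia with each siRNA, at 46.5 against 29.7 RPKM with siRNA1 and 109 against 52.9 RPKM with siRNA2 (0.85 ± 0.44, adjusted p = 0.722). That SE includes the spread between siRNAs, although each siRNA was sampled at both oxygen levels. Without the siRNA1 library in hypoxia, VIM (1.54) and FN1 (1.46) were both called. Without the siRNA2 library in hypoxia EPCAM was called at -1.62, and without the siRNA2 library in normoxia FN1 at 1.26. With 1 siOC2 library left out the siRNAs are unequal between oxygen levels, so these values mix the siRNA with oxygen.

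ONECUT2 siRNA went with lower VIM and TWIST1 in PC3 cells. In hypoxia 2 of 10 members were called, VIM and TWIST1, both lower, against 7.55% of all genes, and neither reached an adjusted p under 0.05, which 0.237% of genes did. VIM in hypoxia was 353 and 328 RPKM in siCtrl, 30.2 RPKM with siRNA1 and 165 RPKM with siRNA2. It fell by 2.26 ± 0.69 on the log2 scale, which is 4.80-fold (adjusted p = 0.235), and it stayed called without each library in turn. The size rested on the siRNA1 library, the shallowest of the line: the log2 fold change was -1.04 without it and -3.49 without the siRNA2 library. In normoxia VIM was 120 and 126 RPKM in siCtrl against 39.5 and 81.9 RPKM, without overlap and with a log2 fold change of -1.11 ± 0.69 (adjusted p = 0.677). In the fit with the siRNA term this was called (adjusted p = 0.0236), and the adjusted p in hypoxia was 1.10e-04. That fit treats these 2 siRNAs as given and does not speak for other siRNAs.

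TWIST1 (chromosome 7, 19060614 to 19157259, minus strand), a basic helix-loop-helix factor, was 4.68 and 3.72 RPKM in siCtrl and 1.67 and 2.27 RPKM with siRNA1 and siRNA2 in hypoxia. It fell by 1.06 ± 0.32 on the log2 scale (adjusted p = 0.235). Both siRNAs went with lower TWIST1 at both oxygen levels, with log2 changes against the siCtrl mean of -1.27 and -0.85 in hypoxia and of -0.66 and -0.77 in normoxia. The call sits at the limit and was lost without the siCtrl library 1 in hypoxia (-0.90) or without the siRNA1 library in hypoxia (-0.85). In normoxia TWIST1 was 4.71 and 4.74 RPKM in siCtrl against 2.95 and 2.74 RPKM, without overlap (-0.72 ± 0.32, adjusted p = 0.551).

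The other 4 factors were not called at either oxygen level. SNAI2, which encodes Slug, was 9.57 and 7.74 RPKM in hypoxic siCtrl libraries and 6.04 and 5.07 RPKM with siOC2, without overlap (-0.63 ± 0.31, adjusted p = 0.461). ZEB1 was 21.1 and 13.8 RPKM against 10.7 and 12.7 RPKM in hypoxia (-0.55 ± 0.32, adjusted p = 0.532). SNAI1 was on the higher side with siOC2 in all 4 libraries, with log2 changes of 0.18 to 1.09 against the siCtrl mean, and in normoxia without the siRNA1 library it was called at 1.09. ZEB2 was 1.22 and 1.58 RPKM with siRNA1 and 0.641 and 0.749 RPKM with siRNA2, in normoxia and hypoxia, against 0.365 to 0.615 RPKM in siCtrl.

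In normoxia 0 of 10 members were called for siOC2 over siCtrl, with 5.28% of all genes called and 0.0982% at an adjusted p under 0.05. EPCAM was called there at 1.08 with the replicate block (adjusted p = 0.494) and with the siRNA term (adjusted p = 0.0454). Without either siOC2 library in hypoxia, EPCAM and VIM were both called in normoxia. In hypoxia CDH2 (1.27), FN1 (1.17) and EPCAM (1.39) were called without the siRNA1 library, and CDH1 (-2.52) without the siRNA2 library. The interaction of siOC2 and hypoxia called 0 of 10 members, against 0.982% and 0.0246% of all genes. Its largest value was that of VIM, -1.15 ± 0.97 (adjusted p = 1.000). In the fit with the siRNA term VIM alone was called, at an adjusted p of 0.907. Without the siRNA2 library in hypoxia VIM (-2.38) and EPCAM (-2.03) were called, again with the siRNAs unequal between oxygen levels.

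The 2 siRNAs parted on the epithelial genes and on FN1 and CDH2. This comparison of siRNA2 with siRNA1, within the siOC2 groups and over both oxygen levels, was added after the data were seen. It called 4 of 10 members, all higher with siRNA2, and 5 of 10 had an adjusted p under 0.05. The background was high as well, with 19.7% of 12213 genes called and 24.8% at an adjusted p under 0.05. CDH1 (chromosome 16, 68771195 to 68869440, plus strand) was 1.09 and 0.741 RPKM with siRNA1, in normoxia and hypoxia, and 6.87 and 5.97 RPKM with siRNA2, around 4.06 to 4.87 RPKM in the 4 siCtrl libraries. CDH1 was therefore below every siCtrl library with siRNA1 and above every one with siRNA2. The log2 difference was 2.70 ± 0.30, 6.50-fold (adjusted p = 2.18e-05).

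EPCAM (chromosome 2, 47572297 to 47614740, plus strand) was 7.78 and 3.70 RPKM with siRNA1 and 17.1 and 19.1 RPKM with siRNA2, in normoxia and hypoxia, against 4.64 to 7.40 RPKM in siCtrl. With siRNA2 it exceeded all siCtrl libraries, and the log2 difference between siRNAs was 1.73 ± 0.31 (adjusted p = 9.24e-04). VIM, lower than in every siCtrl library of the same oxygen level with both siRNAs, was lower with siRNA1 than with siRNA2 by a log2 difference of 1.75 ± 0.28 (adjusted p = 3.75e-04). FN1 (chromosome 2, 216225163 to 216300796, minus strand) was 29.7 and 46.5 RPKM with siRNA1, within the siCtrl range at each oxygen level, and 52.9 and 109 RPKM with siRNA2, above it (1.03 ± 0.24, adjusted p = 0.00548). CDH2 was 20.1 and 18.7 RPKM with siRNA1 and 32.8 and 42.6 RPKM with siRNA2, against 15.8 to 19.4 RPKM in siCtrl (0.94 ± 0.25, adjusted p = 0.0124). Libraries with siRNA2 thus held more of the epithelial genes CDH1 and EPCAM and more of the mesenchymal genes FN1, CDH2 and VIM than those with siRNA1. The median log2 difference of all genes tested was 0.26, also higher with siRNA2. The 5 transcription factors did not pass the test between siRNAs, with log2 differences from -0.91 (ZEB2) to 0.43 (SNAI1). Without any 1 siOC2 library the 4 log2 differences kept their direction, but FN1 was at 0.83 and no longer called without either siOC2 library in hypoxia, while VIM ranged from 1.05 to 2.45, EPCAM from 1.13 to 2.33 and CDH2 from 0.70 to 1.19. VIM was at 1.05 and EPCAM at 1.13 without the siRNA1 library in hypoxia.

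**Figure D2:**
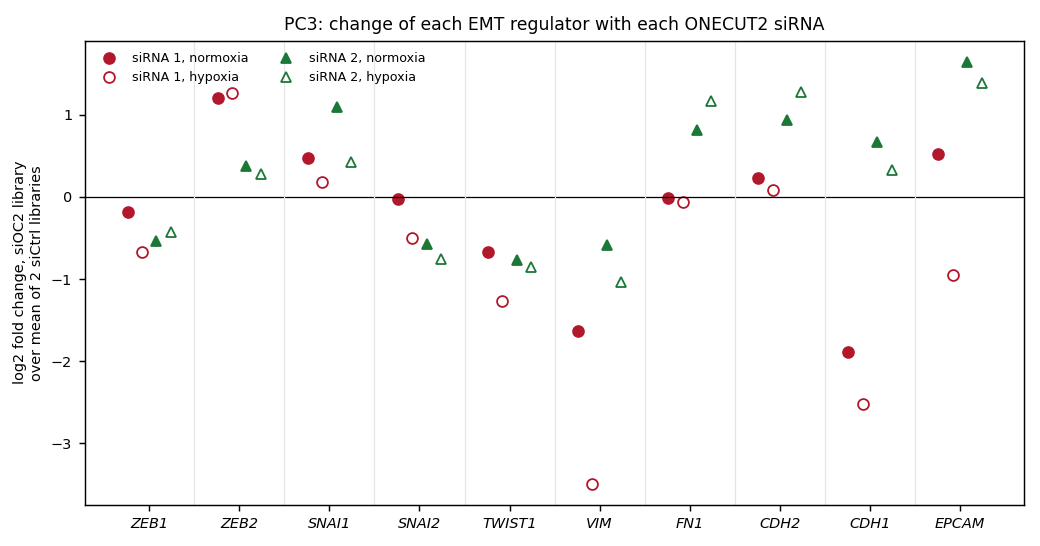
Log2 fold change of each EMT regulator in each PC3 siOC2 library over the mean of the 2 siCtrl libraries of the same oxygen level, with circles for siRNA1, triangles for siRNA2, filled marks for normoxia and open marks for hypoxia. TWIST1 and VIM lie below 0 with both siRNAs, CDH1 lies at -1.88 and -2.52 with siRNA1 and at 0.67 and 0.33 with siRNA2, and there is no error bar because each mark is 1 library.

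Other genes of the programme were split in PC3 as well. In normoxia 3 of 7 epithelial-state factors tested were called, all higher with siOC2, where 5.28% of all genes were called. The list median was 0.62 against 0.13 for all genes tested. Among the called factors were EHF (2.57 ± 0.85), an ETS factor, and ESRP1 (1.64 ± 0.51), an epithelial splicing regulator, at adjusted p of 0.387 and 0.345. EHF reached 1 RPKM only in the siRNA2 libraries, so it was tested only through the side where it was higher, and the same holds for CRB3 and COL5A2 with siOC2, which reached it in at most 1 siCtrl library. Of the 3 called factors 2, EHF among them, were tested only through siOC2 libraries, so the count and median are no support for a change of the list. Of the 21 epithelial junction and keratin genes tested in normoxia 2 were called, CRB3 (1.44) and SPINT1 (1.199), both higher, against the same 5.28% of all genes. Of the 4 catenins JUP was called (1.14 ± 0.29). In hypoxia 2 of 7 epithelial-state factors were called, 1 higher and ELF3 lower (-1.61), with a list median of 0.69 against -0.03 for all genes. Of the 21 junction and keratin genes 2 were called higher and 3 lower, where 7.55% of all genes were called. Of these calls 1 factor and 3 junction genes were tested only through the side where they were higher. KRT19, a simple-epithelium keratin, fell most, from 187 and 177 RPKM in siCtrl to 48.3 and 67.6 RPKM with siRNA1 and siRNA2 (-1.67 ± 0.26, adjusted p = 0.0538). CRB3 (1.93) and DSC2 (-1.47) were also among the 3 largest, and DSC2 reached 1 RPKM only in siCtrl libraries.

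Of 27 mesenchymal matrix and cytoskeleton genes tested, 2 were called with siOC2 in normoxia, where 5.28% of all genes were, and 6 in hypoxia, 3 higher and 3 lower, where 7.55% were. COL5A2, a fibrillar collagen chain, rose from 0.814 and 0.304 RPKM in hypoxic siCtrl libraries to 4.60 and 4.28 RPKM with siRNA1 and siRNA2 (2.90 ± 0.48, adjusted p = 0.0582), and by 1.92 in normoxia. ITGB3, integrin beta 3, fell from 171 and 131 RPKM to 60.1 and 33.3 RPKM in hypoxia (-1.74 ± 0.44, adjusted p = 0.167) and by 1.43 in normoxia. Summed fibroblast markers were 2.77 to 4.43 RPKM in the siCtrl and 5.14 to 8.25 RPKM in the siOC2 libraries, with 3 of 7 under 1 RPKM in every library and none at 0 in all, and their part in these values was not tested. CDH11, another mesenchymal cadherin, was also among the 3 largest in hypoxia (1.30). None of these lists held a gene with an adjusted p under 0.05 for siOC2 over siCtrl. With hypoxia in siCtrl, ELF3 (1.54), SPINT1 (1.44) and the matrix genes ITGA5 (1.76), COL6A1 (1.61) and ITGB3 (1.53) were called higher, CRB3 (-1.65) and SPARC (-1.38) lower. CRB3 reached 1 RPKM in 2 libraries only through normoxic libraries, so it was tested here only through the side where it was higher. Calls with hypoxia in siOC2 included the matrix genes COL6A1 (1.09) and ITGB3 (1.22). Of the interactions ITGA5 (-1.22) was called. No gene of the other EMT factor list, 6 of 13 tested, was called in any of these 5 comparisons.

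Between siRNA2 and siRNA1 10 of the 27 mesenchymal genes tested were called, 3 higher and 7 lower, where 19.7% of all genes were called and 24.8% had an adjusted p under 0.05, with a median of -0.02 against 0.26 for all genes. TAGLN, the actin-binding protein transgelin, was 30.9 and 33.8 RPKM with siRNA1 and 0.857 and 0.977 RPKM with siRNA2, against 0.466 to 1.35 RPKM in siCtrl (-5.00 ± 0.37, adjusted p = 4.63e-07). MYL9, a myosin light chain, was 169 and 147 RPKM with siRNA1 and 16.2 to 23.0 RPKM in the other 6 libraries (-3.03 ± 0.25), and NNMT was also among the 3 largest (-2.07). TAGLN passed the limit on low values only through its siRNA1 libraries. The factors HMGA2 (1.85), SOX9 (1.82) and TCF4 (1.32) were higher with siRNA2, as was the epithelial factor EHF (1.72). CTNND1 was lower with siRNA2 (-1.54 ± 0.24). Of 21 junction and keratin genes 0 were called and 1 had an adjusted p under 0.05.

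In LNCaP cells hypoxia went with a large rise of FN1. FN1 was 76.9 and 59.7 RPKM in normoxic EV libraries and 513 and 487 RPKM in hypoxic ones, far apart compared with the spread within groups. It rose 7.37-fold, a log2 fold change of 2.88 ± 0.12 (adjusted p = 3.62e-06). With OC2 it was 68.1 and 71.9 RPKM in normoxia and 324 and 336 RPKM in hypoxia, a rise of 4.71-fold (2.24 ± 0.12, adjusted p = 1.50e-05). FN1 was the only member called in EV, 1 of 7 tested against 7.99% of all 12283 genes, and 3 of 7 had an adjusted p under 0.05 against 33% of all genes. With OC2, 3 of 7 were called, all higher, against 6.93%, and the same 3 were those with an adjusted p under 0.05, against 27.6%.

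SNAI2 was 4.61 and 4.23 RPKM in normoxic and 8.42 and 9.17 RPKM in hypoxic EV libraries, and 6.85 and 7.75 RPKM against 13.6 and 16.6 RPKM with OC2. It rose by 0.98 ± 0.14 in EV (adjusted p = 0.00161) and by 1.04 ± 0.14 with OC2 (adjusted p = 0.00161), and only the latter passed the 2-fold limit. The EV value passed it without the EV library 1 in hypoxia or in normoxia (1.04 each). With OC2 it missed it without the OC2 library 2 in hypoxia (0.89) or library 1 in normoxia (0.95). VIM was 34.3 and 37.5 RPKM in normoxic and 42.7 and 41.5 RPKM in hypoxic EV libraries (0.23 ± 0.13, adjusted p = 0.191). With OC2 it rose from 23.6 and 28.7 RPKM to 58.2 and 50.3 RPKM (1.05 ± 0.13, adjusted p = 9.05e-04), although the call was lost without the OC2 library 1 in hypoxia (0.95) or in normoxia (0.91). TWIST1 rose with hypoxia in EV, from 8.23 and 7.49 RPKM to 12.1 and 15.4 RPKM (0.79 ± 0.15, adjusted p = 0.00557), and was 10.04 and 10.11 RPKM against 8.93 and 10.8 RPKM with OC2, with overlap.

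SNAI1 and the epithelial genes did not pass the test between oxygen levels in LNCaP. SNAI1 was 1.32 and 1.45 RPKM in normoxic and 1.67 and 1.29 RPKM in hypoxic EV libraries (0.08 ± 0.19), and 4.72 and 4.54 RPKM against 3.89 and 3.39 RPKM with OC2, lower in hypoxia without overlap (-0.34 ± 0.19, adjusted p = 0.201). CDH1 was 330 and 333 RPKM in normoxic and 352 and 362 RPKM in hypoxic EV libraries (0.11 ± 0.12, adjusted p = 0.515). With OC2 it was 397 and 321 RPKM in normoxia and 284 RPKM in the 1 hypoxic library with a value (-0.33 ± 0.14, adjusted p = 0.126). EPCAM was 138 and 129 RPKM in normoxic and 110 and 116 RPKM in hypoxic EV libraries, without overlap (-0.24 ± 0.09, adjusted p = 0.0647). With OC2 it was 133 and 130 RPKM in normoxia and 149 and 144 RPKM in hypoxia (0.16 ± 0.09, adjusted p = 0.212).

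ONECUT2 in LNCaP cells went with higher SNAI1 and SNAI2. SNAI1 was 1.32 and 1.45 RPKM with EV and 4.72 and 4.54 RPKM with OC2 in normoxia, 3.19-fold (1.67 ± 0.19, adjusted p = 0.00191). In hypoxia it was 1.67 and 1.29 RPKM with EV and 3.89 and 3.39 RPKM with OC2, 2.38-fold (1.25 ± 0.19, adjusted p = 0.00490). It was the only member called at each oxygen level, 1 of 7 each, against 3.35% of all genes in normoxia and 4.49% in hypoxia. An adjusted p under 0.05 was reached by 2 of 7 members in normoxia, where 5.78% of all genes did, and by 4 of 7 in hypoxia, where 12.1% did. At these levels of a few RPKM the fold depends on the pseudocount, and with a pseudocount of 1 the hypoxic value was 0.91 and not called. SNAI2 rose by 0.71 ± 0.14 in normoxia (adjusted p = 0.0272) and by 0.77 ± 0.14 in hypoxia (adjusted p = 0.0124), so its highest values were those of the hypoxic OC2 libraries.

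CDH1, which both factors are known to repress, was 397 and 321 RPKM with OC2 in normoxia, on either side of the EV values of 330 and 333 RPKM (0.11 ± 0.12, adjusted p = 0.615). In hypoxia it was 284 RPKM in the 1 OC2 library with a value, below 352 and 362 RPKM with EV (-0.33 ± 0.14, adjusted p = 0.180). With the exact 0 of the other OC2 library kept, the log2 fold change in hypoxia was -6.07 ± 2.82 (adjusted p = 0.202). EPCAM was 133 and 130 RPKM with OC2 against 138 and 129 RPKM with EV in normoxia, within the spread of EV (-0.02 ± 0.09). In hypoxia it rose, from 110 and 116 RPKM with EV to 149 and 144 RPKM with OC2, a fold of 1.30 (0.37 ± 0.09, adjusted p = 0.0296).

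The OC2 effect on VIM, FN1 and TWIST1 differed between oxygen levels at an unadjusted P under 0.05 and not at an adjusted p under 0.05. VIM was lower with OC2 in normoxia, at 23.6 and 28.7 RPKM against 34.3 and 37.5 RPKM (-0.46 ± 0.13, adjusted p = 0.0698), and higher in hypoxia, at 58.2 and 50.3 RPKM against 42.7 and 41.5 RPKM (0.36 ± 0.13, adjusted p = 0.0985). The groups did not overlap in either case, and the interaction was 0.82 ± 0.18 (adjusted p = 0.0876). FN1 with OC2 lay within the EV values in normoxia (0.05 ± 0.12, adjusted p = 0.846) and fell with OC2 in hypoxia, to 324 and 336 RPKM from 513 and 487 RPKM (-0.60 ± 0.12, adjusted p = 0.0181), with an interaction of -0.65 ± 0.17 (adjusted p = 0.135). TWIST1 was 10.04 and 10.11 RPKM with OC2 against 8.23 and 7.49 RPKM in normoxia (0.36 ± 0.15, adjusted p = 0.194) and 8.93 and 10.8 RPKM against 12.1 and 15.4 RPKM in hypoxia (-0.47 ± 0.15, adjusted p = 0.0793). Its interaction was -0.83 ± 0.21 (adjusted p = 0.125).

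EPCAM (0.40 ± 0.12, adjusted p = 0.172) and CDH1 (-0.44 ± 0.18, adjusted p = 0.285, with 1 value missing) also had an interaction at an unadjusted P under 0.05. So did 5 of 7 members in all, against 17.3% of all genes. None of them passed the 2-fold limit, which 3.78% of all genes passed together with the P, and none had an adjusted p under 0.05, which 0.431% of all genes had. The interactions of SNAI1 (-0.42 ± 0.26, adjusted p = 0.453) and SNAI2 (0.06 ± 0.20, adjusted p = 0.911) did not pass either limit. ZEB1, ZEB2 and CDH2, not tested, stayed under 0.6 RPKM with OC2 and with EV at both oxygen levels. Within each library, CDH1 was 8.25 to 9.63 times VIM in the 4 EV libraries, 11.2 and 16.8 times in normoxic OC2 libraries and 4.89 times in the hypoxic OC2 library with a CDH1 value.

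**Figure D3:**
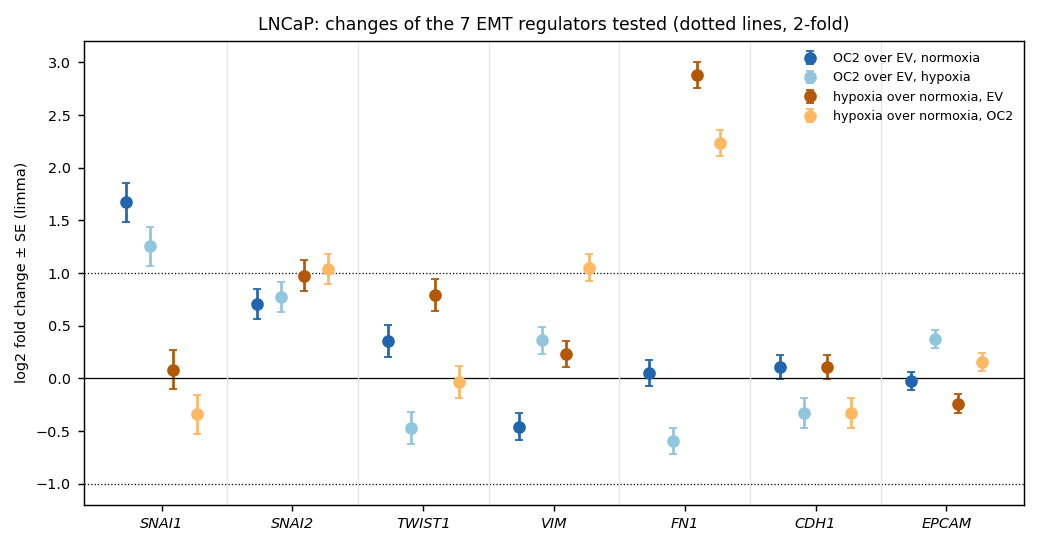
Log2 fold change with its SE from limma on the vertical axis for the 7 EMT regulators tested in LNCaP, with dark and light blue points for OC2 over EV in normoxia and hypoxia and dark and light orange points for hypoxia over normoxia in EV and OC2. FN1 stands at 2.88 and 2.24 for hypoxia, SNAI1 at 1.67 and 1.25 for OC2, and VIM lies below 0 for OC2 in normoxia and above 0 in hypoxia.

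With hypoxia in LNCaP EV libraries 7 of 18 mesenchymal genes tested were called, all higher, with a list median of 0.68 against 0.03 for all genes, of which 7.99% were called and 33% had an adjusted p under 0.05. Of these 7 genes 5, among them S100A4, TNC and SPARC, reached the limit of 1 RPKM in 2 libraries only through hypoxic libraries, so they were tested only through the side where they were higher, and the count and median are no support for a change of the list. S100A4, a calcium-binding protein of motile cells, rose from 0.436 and 0.407 RPKM to 4.31 and 4.13 RPKM (3.05 ± 0.25, adjusted p = 9.29e-05). TNC, the matrix protein tenascin C, rose by 2.48 and SPARC by 1.65, both from levels under 0.5 RPKM. Summed fibroblast markers, a list of 7 that shares 6 with the mesenchymal one, were 8.19 and 8.21 RPKM in normoxic and 17.0 and 18.1 RPKM in hypoxic EV libraries, and 11.49 and 11.997 against 25.4 and 26.3 RPKM with OC2. Without COL1A1 they summed to 0.212 to 1.35 RPKM over all 8 libraries, with none of the 7 at 0 in all of them, and their part in the result was not tested. In the same comparison 6 of 26 junction and keratin genes were called, all higher and none of them tested only through hypoxic libraries, led by KRT19, from 4.93 and 5.08 RPKM to 20.8 and 20.9 RPKM (2.04 ± 0.14, adjusted p = 3.34e-05), MUC1 (1.47) and DSC2 (1.31). Of 7 other EMT factors tested SOX4 (1.87 ± 0.12) and SOX9 (1.69 ± 0.16) were called, and of 11 epithelial-state factors none at 2-fold, 3 at an adjusted p under 0.05. CTNNA1 rose by 0.51 ± 0.10 in EV (adjusted p = 0.00733) and with OC2 (adjusted p = 0.00910).

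With OC2, hypoxia called 4 of 18 mesenchymal genes, all higher and led by TNC (2.46), LGALS1 (2.08) and COL1A1 (1.22), against 6.93% of all genes, and 3 of 26 junction genes, DSP (1.204), DSC2 (1.05) and MUC1 (1.01). SOX4, a factor of the SOX family, was 19.0 and 23.9 RPKM in normoxic and 188 and 176 RPKM in hypoxic OC2 libraries (3.09 ± 0.12, adjusted p = 2.77e-06), and SOX9 rose by 1.27. Of the 4 called mesenchymal genes 3, among them TNC and LGALS1, were tested only through hypoxic libraries. The count of 4 of 18 is therefore no support for a change of the list. SOX4 was the other EMT factor with a called interaction, 1.21 ± 0.17 (adjusted p = 0.0289), and rose with OC2 in hypoxia by 1.28 ± 0.12 (adjusted p = 6.34e-04) from 77.1 and 72.6 RPKM. In normoxia the OC2 values lay on either side of 20.6 and 20.0 RPKM with EV (0.07 ± 0.12).

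OC2 over EV in normoxia called 1 gene of these lists, KRT7, a keratin of simple epithelia, at 0.387 and 0.208 RPKM with EV and 1.27 and 1.45 RPKM with OC2 (1.91 ± 0.28, adjusted p = 0.00738), where 3.35% of all genes were called. KRT7 reached 1 RPKM only in OC2 libraries and was tested only through them. In hypoxia KRT7 rose by 2.399 ± 0.28, and 5 of 18 mesenchymal genes were called, 2 higher and 3 lower, where 4.49% of all genes were called. SPARC (-1.78), COL5A1 (1.54) and FBN1 (-1.42, adjusted p = 0.0646) were the 3 largest. SPARC and FBN1 reached 1 RPKM only in the hypoxic EV libraries and COL5A1 only in OC2 libraries, so each was tested only through the side where it was higher, also for hypoxia in EV and the interaction of SPARC. The interaction called 1 junction gene, KRT19 (-1.04, adjusted p = 0.0688), which reached 11.7 and 11.2 RPKM in hypoxic OC2 libraries, and 2 mesenchymal genes, SPARC (-2.17) and S100A4 (-1.996), both lower and with adjusted p of 0.158 and 0.0571. Of the 4 catenins none was called in any LNCaP comparison.

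**Figure D4:**
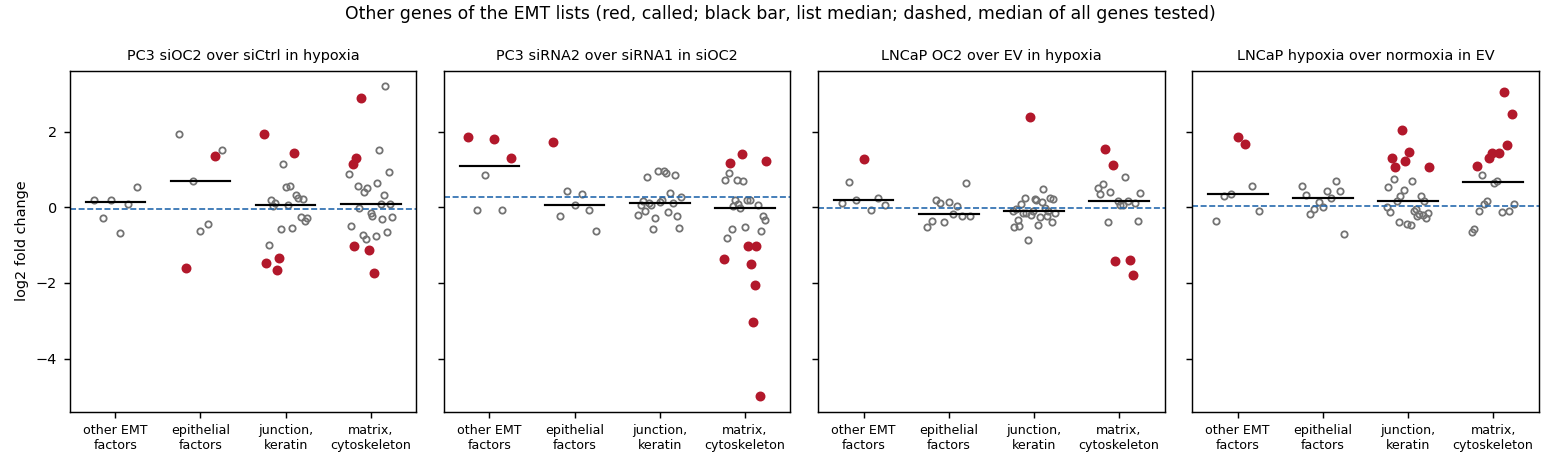
Log2 fold change on the vertical axis of every tested gene of 4 further lists, other EMT factors, epithelial-state factors, junction and keratin genes and mesenchymal matrix and cytoskeleton genes, in 4 comparisons, with red for called genes, black bars for list medians and dashed lines for the median of all genes. With hypoxia in LNCaP EV libraries called genes of the 3 lists that hold any lie above 0, while in PC3 called genes lie on both sides of it.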

How the data were processed

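RNA of PC3 and LNCaP cells was sequenced as 16 stranded mRNA libraries. To make the files, the authors mapped reads after trimming with STAR 2.4.2a, on the hg19 genome, and Cufflinks 2.1.1 gave the deposited RPKM per gene, which were used with no further scaling. Groups and siRNA or replicate numbers came from the labels. No read counts were used, so intervals for counting error are not given, and depth relative to a control library was read from the spacing of low RPKM.

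Each line was fitted on its own with limma 3.58.1 in R 4.3.3, with a mean-variance trend, on log2(RPKM + 0.1) of genes that reached 1 RPKM in 2 or more of 8 libraries, 12214 genes in PC3 and 12283 in LNCaP. The fold changes are on this scale and understate those of low genes. The 4 groups of a line entered 1 fit. An exact 0 beside a group partner of at least 5 RPKM was taken as missing, for 36 values of 21 genes in PC3 and 52 values of 33 genes in LNCaP, among them CDH1 in 1 library, whose fits had 1 library fewer. Calls needed a fold over 2 and an unadjusted 2-sided P under 0.05, and p-values were adjusted by Benjamini-Hochberg over all genes tested. The steps were checked on simulated data.

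The members and all gene lists were chosen with earlier results of these data known. All 10 members are named, and from each other list up to 3 called genes with the largest change per comparison, beside catenins, identity and hypoxia genes. In PC3 the siOC2 number is the siRNA, and same-numbered siOC2 libraries in hypoxia and normoxia deviated together (correlation 0.654 over genes), whereas other PC3 pairs of groups lay between -0.0448 and 0.0741, so the number was not used as a block in the reported fits. Alternatives were a pseudocount of 1, a filter of 5 RPKM and none, upper-quartile scaling, exact 0 values kept, the replicate block, adjusted p for calls and leaving out each library. Promoter windows were taken from RefSeq (GRCh38.p14) and coordinates in GRCh37 from GENCODE lifted to that build. ChIP-Seq, with 12 samples, was not analysed here. Some genes of the wider lists are not reported here.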

Additional observations from a re-analysis of the deposited data

Results flagged for a closer look

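The following 9 differences between conditions in the effect on a member passed a limit in a test of the difference itself, beside many other genes. The limit was a call between siRNAs and an unadjusted P under 0.05 alone for the interactions. In PC3 the siRNA2 and siRNA1 libraries of siOC2 differed, on the log2 scale and with siRNA2 higher, by 2.70 for CDH1, 1.75 for VIM, 1.73 for EPCAM and 1.03 for FN1. Each was called and had an adjusted p under 0.05 in limma, in a comparison added after the data were seen. CDH2 differed there by 0.94 (limma, adjusted p = 0.0124), stayed under 2-fold and is not among the 9. Over all genes 19.7% were called there and 24.8% had an adjusted p under 0.05.

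In LNCaP the effect of OC2 differed between hypoxia and normoxia by 0.82 for VIM and 0.40 for EPCAM, and by -0.83 for TWIST1, -0.65 for FN1 and -0.44 for CDH1. These 5 interactions had an unadjusted limma P under 0.05, as did 17.3% of all genes, and none had an adjusted p under 0.05. The CDH1 value rests on 1 hypoxic OC2 library and was -6.17 (adjusted p = 0.473) with the exact 0 of the other kept. No library could be tested as standing apart within its group, since groups held 2 libraries.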

How the results depend on the processing

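With 2 libraries per group, no read counts and a pooled spread, small changes of low genes could not be resolved, and where 1 library was left out the lone library of its group was assumed to vary like the others. Of 24 member values past a limit 0 reversed under any alternative. Of 71 others 30 changed sign in at least 1 alternative and 14 were called in at least 1.

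For siOC2 over siCtrl in hypoxia the 2 called members became 1 with a pseudocount of 1, a filter of 5 RPKM or upper-quartile scaling and 0 with adjusted p for calls. In normoxia 0 became 1 with the replicate block and 2 with the siRNA term, a fit added after the data were seen. For hypoxia in siCtrl 0 became 1 with the replicate block or the siRNA term, and for the PC3 interaction 0 became 1 with the siRNA term. For OC2 over EV in hypoxia 1 became 0 with a pseudocount of 1 or the filter of 5 RPKM, which left SNAI1 untested, and in normoxia 1 became 0 with that filter. For hypoxia with OC2 3 became 1 under upper-quartile scaling. The filter of 5 RPKM removed TWIST1, at most 4.74 RPKM in PC3, from the PC3 test and SNAI1 from the LNCaP test. The cause of the other changes was not tested. Upper-quartile scaling moved the median of all genes from 0.13 to 0.03 for siOC2 in normoxia, from -0.22 to -0.09 for hypoxia in siOC2, from -0.17 to -0.01 for the PC3 interaction and from 0.26 to 0.12 between siRNAs, where FN1 was at 0.88 and not called.

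Without each library in turn the counts of called members ranged from 0 to 2 for siOC2 in normoxia, 1 to 4 in hypoxia, 0 to 1 for hypoxia in siCtrl, 0 to 2 for hypoxia in siOC2, 0 to 2 for the PC3 interaction, 3 to 5 between siRNAs, 1 to 2 for LNCaP hypoxia in EV and 1 to 3 with OC2. They stayed at 1 for OC2 over EV at each oxygen level and at 0 for the LNCaP interaction. In LNCaP numbers are only names: same-numbered EV libraries in normoxia and hypoxia had a correlation of deviations of -0.178, and the other pairs of groups lay between -0.0739 and 0.140. The replicate block changed none of the LNCaP counts, nor did a block with crossed numbers added after the data were seen.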
